A study of Mus musculus with 41 samples.

Results

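The aminoacyl-tRNA synthetases were taken as the protein-coding genes whose symbol is a single amino acid letter followed by "ars", with or without a closing digit, together with Fars2, Farsa, Farsb, Eprs and Tarsl2. This gave 38 genes of the 22438 genes with footprint counts, and 303 of the 142552 transcripts in the RNA data. The first letter of a symbol is the one-letter code of the amino acid (Aars, alanyl; Wars, tryptophanyl). By their symbols, 21 are cytosolic and 17 mitochondrial (names ending in 2, other than Tarsl2). Of the cytosolic group, 8 are catalytic members of the multisynthetase complex (Dars, Eprs, Iars, Kars, Lars, Mars, Qars and Rars) and 13 act outside it. All 38 passed the filter on low counts in every comparison of genes.

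Each synthetase joins one amino acid to its tRNAs, and so supplies the substrate that the ribosome reads by codon. Cytosolic and mitochondrial translation use separate enzymes for most amino acids, whereas Gars and Kars each encode both forms. Eprs carries the glutamyl and prolyl activities on one chain, Farsa and Farsb encode the chains of the cytosolic phenylalanyl enzyme, and several cytosolic synthetase genes are known targets of ATF4, the transcription factor of the amino acid response.

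Ribosome-protected footprints (RPFs) were sequenced from whole embryos, cerebella and mouse embryonic fibroblasts (MEFs), and RNA from MEFs, to ask how loss of Hbs1l or Pelo, which rescue stalled ribosomes, or of Upf2, a nonsense-mediated decay (NMD) factor, changes translation. The 3 Hbs1l -/- and 3 Wildtype footprint libraries came from C57BL/6NJ embryos at E8.5, several pooled per library. The 3 Atoh-Cre;Hbs1l cKO and 3 Atoh-Cre;Hbs1l +/+ footprint libraries came from the C57BL/6J cerebellum at P14, 1 mouse each, where the Cre acts in granule cell precursors while the whole tissue was profiled. The primary MEFs were C57BL/6 cells, all given tamoxifen and all carrying CAG-Cre ER: Hbs1l cKO, Pelo cKO and Upf2 cKO with 3 footprint libraries each, 3 control libraries with CAG-Cre ER alone in the sequencing batch of each mutant, and in 1 further batch the RNA of 3 control, 3 Hbs1l cKO, 2 Pelo cKO and 3 Upf2 cKO cultures. Each MEF replicate was the culture of 1 embryo. The study's genotype list gives the C57BL/6J allele of the arginine tRNA gene n-Tr20, which impairs that tRNA, for the mutant cerebella and for both mutant and control MEFs, and names a floxed Hbs1l allele over a null one for the Hbs1l cKO animals and cells. A wider range of footprint lengths was kept for embryos and MEFs than for cerebella. In bulk samples of these kinds, fewer cells of a type and less RNA per cell cannot be told apart.

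Library totals were 2634480 to 7298812 footprint counts in embryos, 10919139 to 22591768 in cerebella and 5782990 to 25607974 in MEFs, and 22713643 to 86425762 estimated counts for RNA. Hbs1l footprints fell by 3.60 (log2) in Hbs1l -/- embryos, by 1.50 in the cerebellum and by 4.15 in MEFs, and Pelo footprints fell by 3.78 in Pelo cKO MEFs. Upf2 went against its label: its footprints were 54.2 ± 4.63 CPM (counts as parts of the scaled library total; SD, n = 3) in controls and 115.6 ± 2.90 in the libraries labelled Upf2 cKO, a log2 fold change of 1.09, and its RNA rose by 1.33. In the Pelo cKO RNA libraries, set against the same controls, Upf2 RNA fell by 1.38 (adjusted p = 0.00548). These counts cover whole genes and do not separate the deleted exons from the rest. In the RNA libraries labelled Upf2 cKO, 434 of 2945 transcripts annotated as NMD targets were higher and 3 lower. Among all transcripts tested there, 4.37% were called higher and 0.985% lower. Control MEF libraries with the same replicate number agreed almost to counting noise across the 3 batches (chi-square per gene 1.10 to 1.18, against 3.93 to 12.03 between numbers), so the comparisons of the mutants share their controls. Marker genes of the labelled sources were present: 7 of 7 fibroblast markers in MEFs, and 5 of 5 granule cell and 4 of 4 Purkinje cell markers in cerebella.

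The promoters of 28 synthetase genes, from 250 bases before to 50 after the start site, were matched in RefSeq (GRCm38.p6). Those not matched included Hars, Hars2, Lars, Nars, Cars, Pars2, Rars, Vars and Wars. The matched promoters were searched for TGATGNAA, the C/EBP-ATF response element that ATF4 is known to bind, on both strands (reverse TTNCATCA). The element was found in 5 of 14 matched cytosolic genes (35.7%) and in 0 of 14 mitochondrial ones, beside 1304 of 32851 promoters in the table (3.97%). A match is a description of sequence, not a binding site. A stretch that holds it is shown for each because the same 5 genes are compared with the others among the footprint changes further on. Each runs 5′ to 3′ on the coding strand with the element in capitals.
Aars, chr8:111033840-111033869, plus strand, 9 bases after the start site: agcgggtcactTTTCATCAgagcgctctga
Gars, chr6:55037960-55037989, plus strand, 30 bases before: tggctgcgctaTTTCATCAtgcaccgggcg
Iars, chr13:49682126-49682155, plus strand, 7 bases after: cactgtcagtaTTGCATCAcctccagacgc
Tars, chr15:11399655-11399684, minus strand, 15 bases before: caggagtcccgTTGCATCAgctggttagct
Yars, chr4:129189895-129189924, plus strand, 3 bases after: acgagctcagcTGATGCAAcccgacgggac

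In control libraries, cytosolic synthetases carried more footprints per kilobase of coding sequence than mitochondrial ones in each source. The cytosolic median was 120 CPM per kilobase in embryos (6.19 to 244), 48.5 in cerebella (15.6 to 127) and 123 in MEFs (7.12 to 406). The mitochondrial medians were 16.3 (5.40 to 63.6), 10.8 (3.85 to 21.4) and 10.1 (3.94 to 42.9). The order within the cytosolic group differed between sources. In embryos Kars (lysyl) led at 244 ± 19.8 (SD, n = 3), ahead of Dars (aspartyl) at 200 ± 3.79 and Gars (glycyl) at 193 ± 2.97, and the last pair were within 2 SD of each other. In MEFs Nars (asparaginyl) led at 406 ± 4.12, followed by Gars at 327 ± 17.7 and Sars (seryl) at 261 ± 8.64. In cerebella Sars (127 ± 22.2), Nars (118 ± 28.1) and Gars (101 ± 14.2) were within their spread. Tarsl2, a second cytosolic threonyl enzyme, lay with the mitochondrial genes in embryos (6.19 ± 1.39) and MEFs (7.12 ± 0.148). Of the mitochondrial genes, Pars2 (prolyl) and Vars2 (valyl) were at 3.85 to 7.89 CPM per kilobase and the lowest pair in MEFs, and in cerebella Ears2 (4.16) lay between them.

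**Figure D1:**
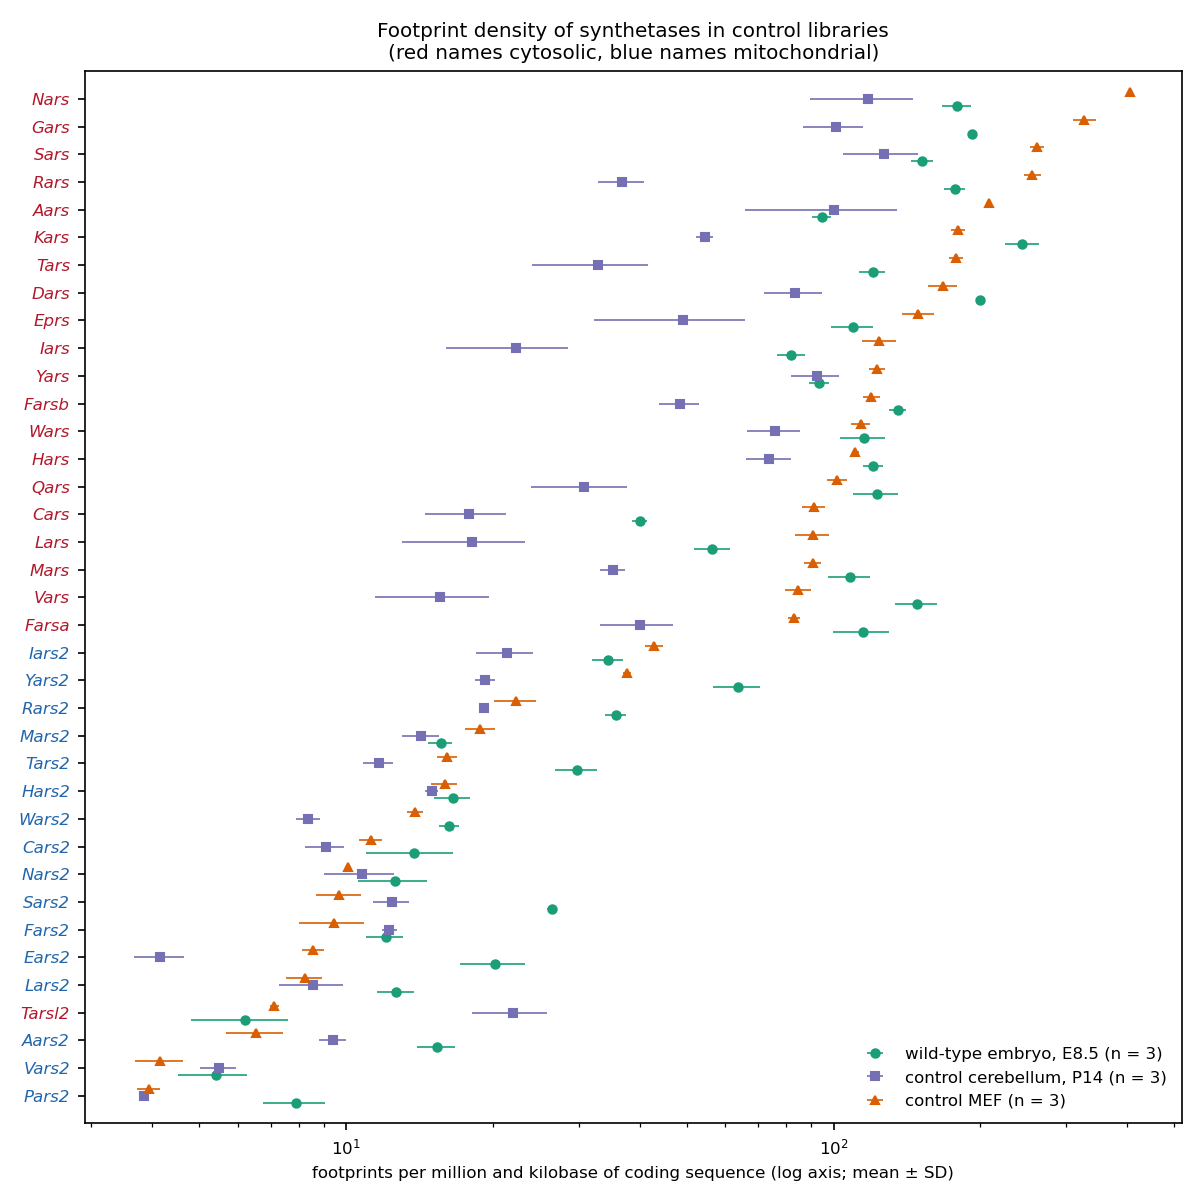
Footprints (CPM per kilobase of coding sequence, log axis, mean ± SD, n = 3) for the synthetases in control embryos (circles), cerebella (squares) and MEFs (triangles), ordered by the MEF level, with cytosolic names in red and mitochondrial names in blue. All cytosolic genes but Tarsl2 sit above the mitochondrial ones in MEFs, and Tarsl2 is higher in the cerebellum (21.9) than in embryos (6.19) or MEFs (7.12).

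Between control embryos and cerebella, 29 synthetases were higher in embryos and 1 was lower (edgeR's quasi-likelihood test, Benjamini-Hochberg adjusted), where 80.1% of all genes tested were called, 35.0% higher and 45.1% lower. Vars (valyl, chr17:35000987-35016322) differed most, by 3.26 (log2, SE 0.18, adjusted p = 1.78e-09). Its 3 embryo libraries held 578, 622 and 510 CPM and its 3 cerebellar libraries 67.7, 69.8 and 41.5, with no overlap. Ears2 (glutamyl, mitochondrial) was higher by 2.28, Rars (arginyl) by 2.26, Kars by 2.17 and Qars (glutaminyl) by 2.00. Iars (isoleucyl) and Tars (threonyl) each differed by 1.88, Yars2 by 1.72, Lars (leucyl) by 1.64, Mars (methionyl) by 1.62 and Gars by 0.93. Tarsl2 was lower in embryos, by 1.84 (adjusted p = 5.22e-07). The synthetase share of all footprints was 0.735 to 0.876% in the 6 embryo libraries and 0.243 to 0.336% in the 6 cerebellar ones. Tissue, age, Cre transgene, strain, footprint length and batch cannot be told apart in this comparison. In the next, source, age, culture, tamoxifen, CAG-Cre ER, strain and batch cannot be told apart.

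Calls between control MEFs and embryos were counted by compartment, and the difference between compartments was not tested. Relative to embryos, 10 cytosolic synthetases were higher and 4 lower in MEFs, whereas 1 mitochondrial synthetase was higher and 9 lower, where 69.0% of all genes were called, 35.9% higher and 33.1% lower. The medians were 0.40 and -0.62 (log2), beside 0.05 over all genes. Cars (cysteinyl) was higher by 1.19, Nars by 1.18, Aars (alanyl) by 1.14, Sars by 0.78, Gars by 0.76, Lars by 0.68, Iars by 0.60, Tars by 0.57, Rars by 0.53 and Yars (tyrosyl) by 0.40. Kars was lower, by 0.44. The others lower in MEFs included Sars2 (-1.44), Ears2 (-1.24), Aars2 (-1.23), Pars2 (-0.99), Tars2 (-0.88), Vars (-0.81), Yars2 (-0.75), Rars2 (-0.68) and Lars2 (-0.62). Iars2, the single mitochondrial exception, was higher by 0.32. The 5 cytosolic genes with the promoter element had a median of 0.60 and the 9 without it -0.25. The 78 mitochondrial ribosomal protein genes had a median of -0.53, with 58 lower and 2 higher.

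In Hbs1l -/- embryos, 0 of 38 synthetases passed the threshold with edgeR, where 1.87% of all genes were called, and 0 passed with DESeq2. At an unadjusted p under 0.05 there were 5 of 38, a smaller share than the 18.6% of all genes. They were Dars, Iars, Rars, Gars and Yars, all cytosolic. Dars footprints were 367, 366 and 355 CPM in Wildtype and 397, 603 and 575 in Hbs1l -/- libraries, a log2 fold change of 0.53 (SE 0.16, adjusted p = 0.108). The groups did not overlap, and the first mutant library lay closest to the controls. Iars was at 359, 360 and 402 CPM against 412, 566 and 452 (0.35, adjusted p = 0.228), also without overlap. Gars was at 516, 508 and 501 CPM in Wildtype against 548, 697 and 660 (0.32, adjusted p = 0.237), with the same library lowest among the mutants. Yars was at 192, 182 and 199 CPM against 234, 233 and 238 (0.30, adjusted p = 0.239), where the 3 mutant libraries lay close together. Kars was at 0.09 (adjusted p = 0.762).

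Without the first Hbs1l -/- library, 7 synthetases passed in embryos, where 20.3% of all genes were called in that fit. The cytosolic median was 0.16 and the mitochondrial median -0.13, beside 0.01 over all genes, and the 8 complex members had a median of 0.32. Groups did not overlap for 8 members higher and 4 lower in Hbs1l -/- embryos, beside 11.4% and 12.3% of all genes. The 4 lower members, no larger a share than among all genes, were Fars2 (22.5, 19.5 and 19.5 CPM against 16.4, 15.4 and 12.3), Ears2, Wars2 and Mars2, all mitochondrial. Marker sums of other cell types also differed in these embryos. The 5 heart markers summed to 628 to 1028 CPM in the mutants and 1693 to 1778 in Wildtype, the 4 erythroid markers to 3072 to 7879 and 12471 to 16327, and the 5 trophoblast markers to 76.0 to 797 and 3.796 to 6.392, with none of these markers at 0 throughout a group. Their part in the synthetase values was not tested.

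In the Hbs1l cKO cerebellum, 0 of 38 synthetases passed the threshold with edgeR or DESeq2, where 0.0624% of all genes were called, and 0 had an unadjusted p under 0.05, beside 13.4% of all genes. Medians were -0.11 for cytosolic and -0.02 for mitochondrial genes. Aars had the lowest unadjusted p (0.129) and the change farthest from 0: 393, 375 and 191 CPM in controls against 266, 242 and 198 in mutants (-0.44, SE 0.26, adjusted p = 0.514). The third control library lay apart, below the mutants, and its synthetase share of 0.243% was the lowest of the series. Nars showed the same library at 155 CPM, below controls at 250 and 245 and mutants at 196, 168 and 161 (-0.31, adjusted p = 0.542). Rars2 was at 37.0, 35.6 and 36.9 CPM in controls against 33.6, 31.6 and 33.1 in mutants (-0.15, adjusted p = 0.559), and these did not overlap. Gars was at -0.15 and Kars at 0.06. Without the third control library 1 synthetase passed, beside 3.84% of all genes. The 4 Purkinje cell markers summed to 4548 to 5932 CPM in mutants and 5961 to 11140 in controls, and the 5 granule cell markers to 2763 to 3370 and 2497 to 4355. Their part in the synthetase values was not tested.

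In Hbs1l cKO MEFs, 16 of 38 synthetases rose and 0 fell, where 17.4% of all genes were called higher and 34.1% in either direction. They were 6 of 8 complex members, 6 of 13 other cytosolic enzymes and 4 of 17 mitochondrial ones. Vars was at 248, 274 and 240 CPM in controls and 383, 405 and 371 in mutants, a 1.52-fold rise (log2 0.60, SE 0.07, adjusted p = 2.27e-05). Lars rose from 246, 223 and 272 to 349, 341 and 337 CPM (0.47, adjusted p = 0.000259). Eprs rose from 525, 488 and 591 to 718, 688 and 732 CPM (0.41, adjusted p = 0.000614). In each of these the lowest mutant library lay well above the highest control. Mars rose by 0.41, Iars by 0.35, Kars by 0.32, Tars by 0.28 and Aars by 0.23. Farsa, Dars, Farsb and Cars also rose, by 0.21 to 0.23. Of the mitochondrial enzymes, Tars2 (threonyl) rose by 0.37, Mars2 by 0.30 and Yars2 by 0.29.

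Medians in Hbs1l cKO MEFs were 0.21 for cytosolic and 0.15 for mitochondrial synthetases, beside -0.01 over all genes. Gars, among the most abundant, was at 566, 527 and 612 CPM in controls and 611, 594 and 607 in mutants (0.09, adjusted p = 0.323), and its groups overlapped. Without the first Hbs1l cKO library, 10 synthetases passed, among 2913 genes called in all against 4083 with it. Over all fits that left out 1 library, Eprs, Aars, Kars, Mars, Iars, Tars, Yars2, Vars and Lars passed each time.

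In Pelo cKO MEFs, 16 of 38 synthetases rose and 0 fell, where 22.9% of all genes were called higher and 44.1% in either direction. These were 6 complex members, 7 other cytosolic enzymes and 3 mitochondrial ones. Vars was at 261, 265 and 243 CPM in controls and 371, 402 and 390 in mutants (0.59, SE 0.06, adjusted p = 6.39e-05). Kars, which makes the cytosolic and the mitochondrial lysyl enzyme (chr8:111993443-112011323), rose from 261, 268 and 280 to 382, 370 and 367 CPM (0.47, adjusted p = 0.000191). Both had mutant libraries far above every control. Mars rose by 0.45, Iars and Aars by 0.35 each, Tars by 0.34, Lars and Eprs by 0.32 each, Yars by 0.31, Cars by 0.27, Nars by 0.23, Rars by 0.21 and Sars by 0.17. The mitochondrial risers were Tars2 (0.37), Yars2 (0.34) and Hars2 (0.33). Gars had a log2 fold change of 0.11 (adjusted p = 0.217).

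Qars had the lowest value among complex members in Pelo cKO MEFs, 185, 193 and 183 CPM in controls and 167, 175 and 158 in mutants (-0.17, adjusted p = 0.0513), and these did not overlap. Medians were 0.23 for cytosolic, 0.17 for mitochondrial and 0.00 for all genes. Without the first control library of this batch, 10 synthetases passed, and 33.2% of all genes. Leukocyte markers (5 genes, none at 0) summed to 345 to 501 CPM in Pelo cKO, 162 to 219 in Hbs1l cKO and 123 to 158 in the libraries labelled Upf2 cKO, beside 91.3 to 126.5 in the Pelo controls. Endothelial markers (5 genes, none at 0) summed to 25.1 to 31.9, 38.8 to 43.4 and 54.8 to 61.6, beside 73.6 to 81.4. Fibroblast markers (7 genes, none at 0) summed to 22810 to 29066, 20971 to 25248 and 24769 to 26978, beside 17919 to 18065. Their part in the synthetase values was not tested.

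In the MEF libraries labelled Upf2 cKO, 20 of 38 synthetases rose and 0 fell, where 22.3% of all genes were called higher and 43.4% in either direction. The rise took in 10 of 13 cytosolic enzymes outside the complex, 4 of 8 complex members and 6 of 17 mitochondrial ones. Aars (chr8:111033144-111057664) was at 474, 474 and 490 CPM in controls and 753, 742 and 764 in the labelled mutants, a 1.57-fold rise (0.65, SE 0.05, adjusted p = 7.77e-06). Yars rose from 169, 156 and 175 to 236, 237 and 242 CPM (0.52, adjusted p = 7.33e-05). Sars rose from 337, 332 and 319 to 445, 442 and 455 CPM (0.44, adjusted p = 9.53e-05). The 3 mutant libraries of each lay close together and far above the controls. Lars rose by 0.49, Vars by 0.47, Cars by 0.41, Eprs by 0.40, Tars by 0.39, Mars by 0.37, Wars and Iars by 0.27 each, Nars by 0.20, and Farsa and Hars by 0.18 each.

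The mitochondrial risers in the libraries labelled Upf2 cKO were Hars2 (histidyl), Lars2, Ears2, Yars2, Wars2 and Tars2. Hars2 rose from 20.7, 19.9 and 18.9 to 27.9, 32.1 and 29.2 CPM (0.59, adjusted p = 0.000548), and Lars2 from 19.3, 17.3 and 16.2 to 23.4, 28.0 and 25.4 CPM (0.55, adjusted p = 0.00212). Ears2 rose by 0.49, Yars2 by 0.47, Wars2 by 0.46 and Tars2 by 0.35. The remaining 4 complex members did not pass: Kars was at 260, 258 and 278 CPM in controls and 269, 289 and 267 in the labelled mutants (0.05, adjusted p = 0.515), and Dars, Rars and Qars were at -0.07 to -0.11. Gars was at 0.16 (adjusted p = 0.0567). Medians were 0.27 for cytosolic and 0.19 for mitochondrial synthetases, beside 0.00 for all genes.

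**Figure D2:**
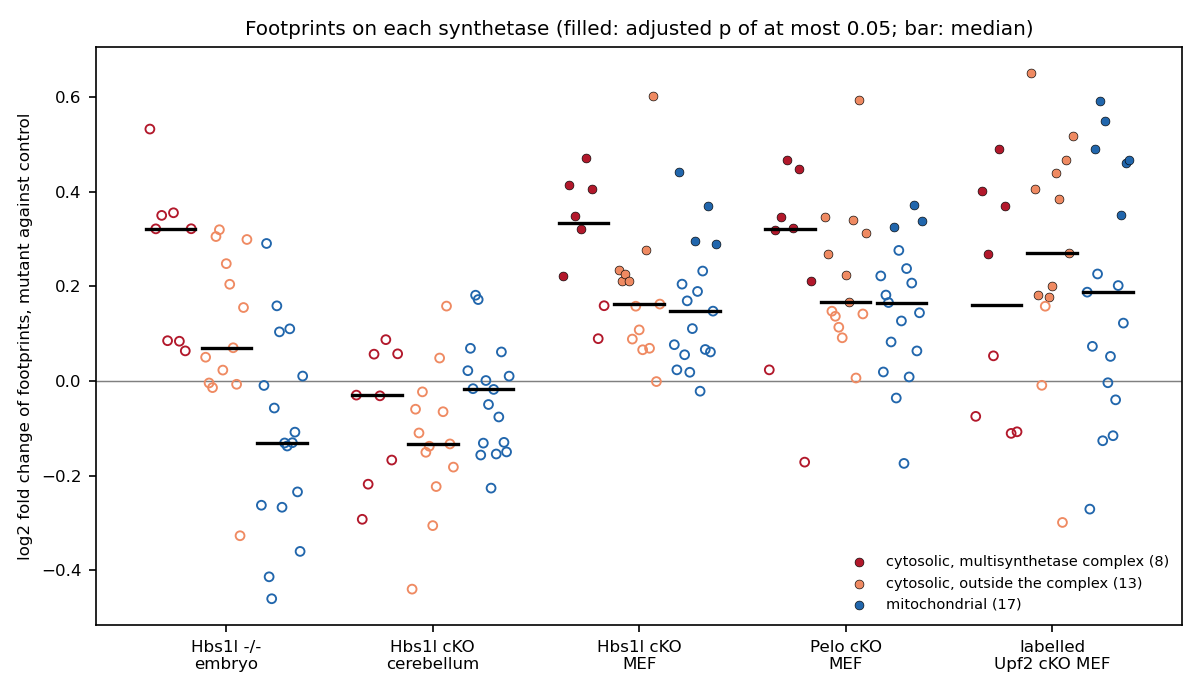
Log2 fold change of footprints, mutant against control, for each of the 38 synthetases (points) in 5 comparisons, split into complex members (dark red), other cytosolic enzymes (orange) and mitochondrial enzymes (blue), with filled points past the threshold and bars at the medians. No point is filled in embryos or cerebella, and the filled points in MEFs, 16, 16 and 20, lie above 0.

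In the libraries labelled Upf2 cKO, the 5 cytosolic genes with the promoter element had a median footprint change of 0.39. For the 9 matched cytosolic genes without it the median was 0.05, with 4 called in each set, beside 43.4% of all genes. The corresponding medians were 0.34 and 0.15 in Pelo cKO (4 called in each, 44.1% of all genes) and 0.23 and 0.22 in Hbs1l cKO (3 and 6 called, 34.1% of all genes). For RNA the medians with and without the element were -0.30 and -0.12 in the libraries labelled Upf2 cKO, 0.00 and -0.14 in Pelo cKO, and 0.18 and 0.17 in Hbs1l cKO. In Hbs1l -/- embryos the footprint medians were 0.30 and 0.09, and in the Hbs1l cKO cerebellum -0.18 and -0.06, with 0 called in each set. Of the 5 genes with the element, Gars had no footprint call in any of the 3 MEF mutants. Its RNA fell in the libraries labelled Upf2 cKO. Kars footprints rose in Hbs1l cKO and Pelo cKO, and Kars holds no such element in the window searched. Vars and Lars, whose promoters were not matched, stand in neither set. The part of the element in these changes was not tested.

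Footprint levels were compared directly between the mutants, in a fit that also held the control libraries summed over batches. Each mutant was sequenced in a batch of its own, so mutant and batch cannot be told apart in these contrasts. The same-numbered controls of the 3 batches agreed almost to counting noise, as given above. That agreement does not bear on differences in preparation between the mutant libraries. Between Pelo cKO and Hbs1l cKO, 3 synthetases differed (19.3% of all genes called): Kars (0.19, adjusted p = 0.027) and Yars (0.18, adjusted p = 0.0388) were higher in Pelo cKO and Qars lower (-0.26, adjusted p = 0.00633). Between Pelo cKO and the libraries labelled Upf2 cKO, 9 differed (29.0% of all genes). Kars was higher in Pelo cKO by 0.45 (SE 0.06, adjusted p = 3.66e-05), as were Rars (0.29) and Farsb (0.19), whereas Hars2 (-0.41), Wars2 (-0.38), Lars2 (-0.34), Aars (-0.31), Sars (-0.24) and Yars (-0.22) were lower.

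Between the libraries labelled Upf2 cKO and Hbs1l cKO, 13 synthetases differed (15.5% of all genes). Hars2 (0.47), Aars (0.42), Wars2 and Yars (0.40 each), Sars (0.37), Wars (0.29) and Cars (0.24) were higher in the former. Tarsl2 (-0.50), Rars (-0.29), Kars (-0.26), Dars and Qars (-0.25 each) and Farsb (-0.22) were lower. Of these 6 lower genes, 4 belong to the multisynthetase complex, and the 7 higher ones lie outside it. Gars did not pass in any of the 3 contrasts (-0.03 to 0.05). Fitted instead as an interaction with each mutant's own control libraries, the 3 contrasts called 0, 4 and 3 synthetases in the order given, among 695, 1648 and 608 genes called in all, against 2468, 3719 and 1990. Without the first or the second library labelled Upf2 cKO, 8 synthetases differed between those libraries and Hbs1l cKO, among 1333 and 1316 genes. Between Pelo cKO and Hbs1l cKO, 1 passed without Hbs1l cKO replicate 2, Hbs1l cKO replicate 3 or Pelo cKO replicate 1, beside 16.8%, 11.6% and 14.2% of all genes.

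**Figure D3:**
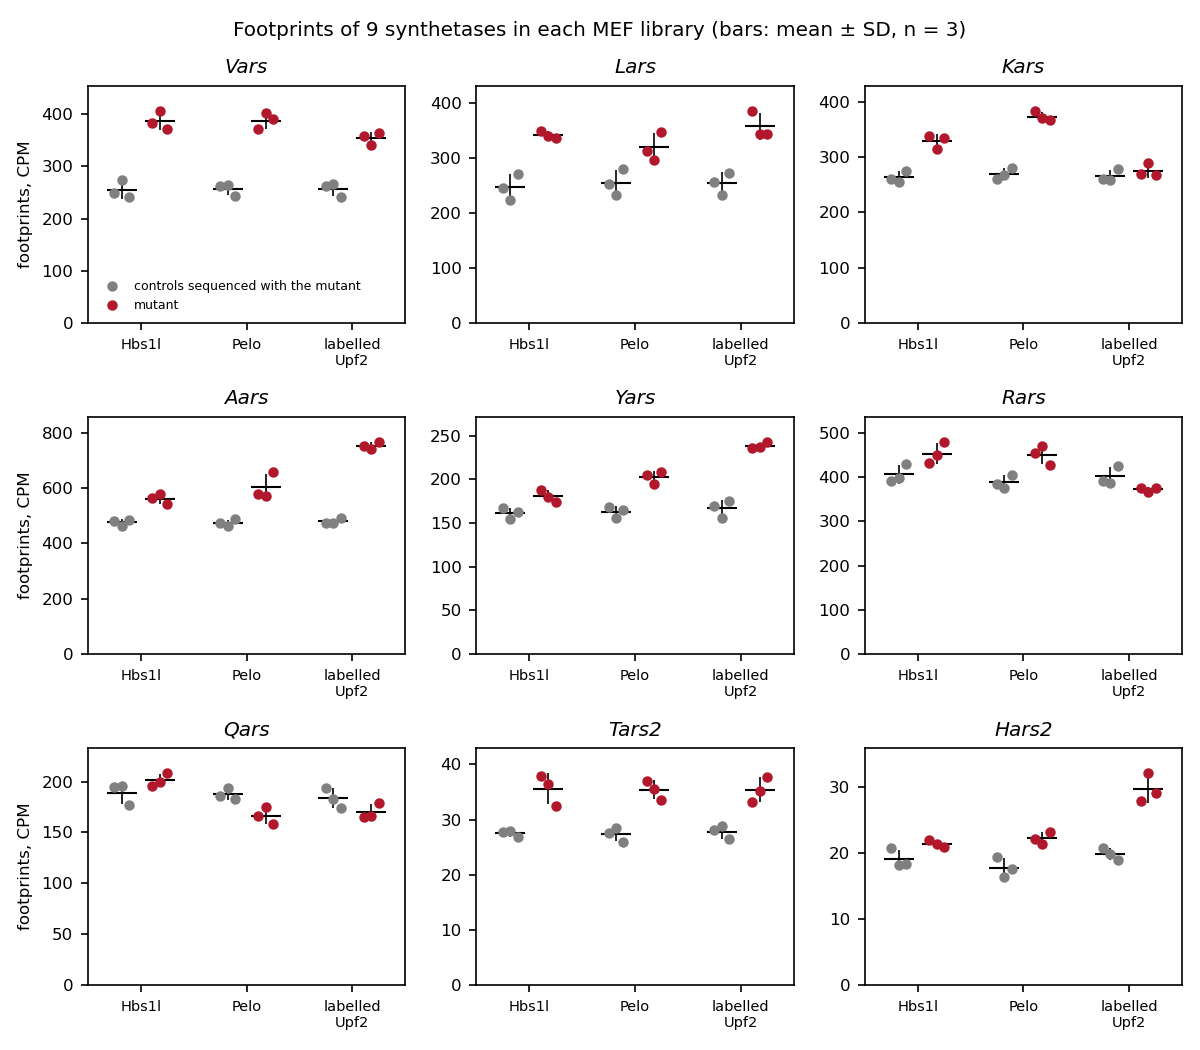
Footprints (CPM, axes from 0) of 9 synthetases in each MEF library, with grey points for the controls sequenced with a mutant, red points for the mutant, and bars for the mean ± SD (n = 3). Vars and Lars are above the controls for all 3 mutants, Kars for Hbs1l and Pelo, and Aars, Yars and Hars2 stand highest in the libraries labelled Upf2 cKO.

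The effect of Hbs1l loss was compared between sources as an interaction over 12 libraries, a test added after the data were examined. It differed between MEFs and embryos for 1 synthetase, Vars (0.92, SE 0.20, adjusted p = 0.0109), where 7.46% of all genes were called. Vars rose in MEFs, and in embryos it was at 696, 751 and 616 CPM in Wildtype and 680, 551 and 411 in Hbs1l -/- (-0.33, adjusted p = 0.326), with overlap. Without the first Hbs1l -/- library 6 synthetases differed, beside 20.9% of all genes. Gars was at -0.24 and Kars at 0.23 in this test, neither past the threshold. Between MEFs and cerebella the edgeR test called 0 (4.87% of all genes), with 2 at an unadjusted p under 0.05 (20.1% of all genes) and 0 by DESeq2, the lowest p values belonging to Rars2 (0.35, adjusted p = 0.204), Aars (0.63, adjusted p = 0.245) and Iars (0.53, adjusted p = 0.253). Without the third control cerebellum it called 8, among 2046 genes called in all against 703 with that library. Between embryos and cerebella it called 0 (0.732% of all genes), with 6 at an unadjusted p under 0.05 (15.7% of all genes) and 1 by DESeq2, and here Yars (0.48, adjusted p = 0.194), Fars2 (-0.63, adjusted p = 0.227) and Gars (0.47, adjusted p = 0.285) had the lowest p.

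RNA of the MEFs was compared next, with the same 3 control libraries for all 3 mutants. In Hbs1l cKO MEFs, RNA of 12 synthetases rose and of 0 fell, where 12.7% of all genes were called higher and 23.1% in either direction, and 7 of the 12 were mitochondrial. Vars RNA was at 247, 266 and 272 CPM in controls and 435, 370 and 435 in mutants (0.66, adjusted p = 0.00319). The groups did not overlap, and Tars2 RNA rose by 0.53. Vars2 rose by 0.47, Pars2 by 0.45, Yars2 by 0.42, Ears2 by 0.41, Cars2 by 0.39, Mars by 0.38, Yars by 0.35, Kars by 0.34 and Farsa by 0.33. Gars RNA was at 0.05 (adjusted p = 0.725). The count was 3 without control replicate 2 (11.1% of all genes), 4 without Hbs1l cKO replicate 3 (17.8%), 5 without Hbs1l cKO replicate 1 (15.7%), and 6 without control replicate 1 or 3 (15.2% and 16.5%). Vars and Tars2 were among those that passed each time.

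In Pelo cKO MEFs, RNA of 1 synthetase rose and of 6 fell, where 15.5% of all genes were called higher and 16.6% lower. Dars RNA was at 70.2, 69.7 and 72.1 CPM in controls and 43.4 and 39.3 in the 2 mutant libraries (-0.77, SE 0.08, adjusted p = 0.00135), well below every control. Rars2 fell by 0.62, Eprs by 0.57, Lars by 0.43, Rars by 0.41 and Farsb by 0.30, and Vars2 rose by 0.36. Of the 5 cytosolic genes that fell, 4 belong to the complex. Kars RNA was at 0.03 (adjusted p = 0.797), Gars RNA at 0.00 and Vars RNA at 0.17 (adjusted p = 0.168). The count was 1 without Pelo cKO replicate 2 (9.71% of all genes), 2 without Pelo cKO replicate 1 (11.4%), and 3 without control replicate 2 or 3 (31.8% and 22.9%, against 32.1% in the full fit). Dars passed each time. With a replicate block the count was 1, beside 20.1% of all genes.

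In the RNA libraries labelled Upf2 cKO, 7 synthetases rose and 5 fell, where 13.2% of all genes were called higher and 6.76% lower. The risers were 6 mitochondrial genes and Yars, and the 5 that fell were cytosolic. Dars RNA fell from 72.6, 69.6 and 73.2 to 49.7, 46.7 and 35.9 CPM (-0.70, adjusted p = 0.00396). Tarsl2 RNA fell from 5.81, 6.54 and 6.35 to 3.46, 3.80 and 2.70 CPM (-0.91, adjusted p = 0.00556). Rars fell by 0.53, Eprs by 0.47 and Gars by 0.34. Yars2 rose by 0.57, Vars2 by 0.55, Tars2 by 0.52, Hars2 by 0.49, Ears2 by 0.45, Wars2 by 0.43 and Yars by 0.35, and Kars was at -0.12 (adjusted p = 0.442). Medians were -0.22 for cytosolic and 0.22 for mitochondrial synthetases, beside -0.02 over all genes. The count was 2 without control replicate 2 (10.6% of all genes), 3 without control replicate 3 or labelled mutant replicate 2 (11.8% and 12.8%), and 7 without labelled mutant replicate 3 (15.3%). Dars and Tarsl2 passed each time. With limma on log2(TPM + 0.5) instead of edgeR, RNA of 3, 2 and 3 synthetases passed in Hbs1l cKO, Pelo cKO and the libraries labelled Upf2 cKO, beside 12.4%, 15.1% and 10.1% of all genes.

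The gap between the compartments was followed library by library, as the median change of cytosolic minus that of mitochondrial members. For RNA of the libraries labelled Upf2 cKO it was -0.44 overall and -0.20, -0.30 and -0.71 in the single mutant libraries, all below the controls, which ranged from -0.15 to 0.11. For RNA of Hbs1l cKO and Pelo cKO it was -0.14 and -0.13, and the single mutant libraries, between -0.15 and -0.08, lay within the range of the controls. For MEF footprints it was 0.06, 0.06 and 0.08, and for embryo footprints 0.29, where the first Hbs1l -/- library was at 0.00 and the others at 0.45 and 0.38.

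Translational efficiency (TE), the footprint change relative to the RNA change, was tested as a genotype-by-assay interaction term. In Hbs1l cKO MEFs TE of 0 of 38 synthetases changed with edgeR, where 0.0336% of all genes were called. At an unadjusted p under 0.05 there were 7, beside 17.3% of all genes, and DESeq2 called 1 (4.18% of all genes). The edgeR count was 1 without RNA control replicate 1 (0.561%). The lowest p belonged to Dars (0.64, adjusted p = 0.133), Eprs (0.51, adjusted p = 0.161) and Rars (0.37, adjusted p = 0.198), and Kars and Gars were at -0.01 and 0.05.

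In Pelo cKO MEFs TE of 15 synthetases rose and of 0 fell, where 24.3% of all genes were called higher and 44.6% in either direction. They were 6 complex members, 7 other cytosolic enzymes and 2 mitochondrial ones. Eprs rose by 0.91 (SE 0.19, adjusted p = 0.00197), Dars by 0.82 (adjusted p = 0.000119), Lars by 0.78, Rars2 by 0.65, Rars by 0.64, Tars by 0.59, Mars by 0.53, Yars by 0.48, Kars by 0.46, and Farsb, Hars2 and Vars by 0.45 each. Cars, Nars and Sars rose by 0.33 to 0.43. For Dars this combined footprints at 0.02 with RNA at -0.77, and for Kars footprints at 0.47 with RNA at 0.03. Gars TE was at 0.14 (adjusted p = 0.364).

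The footprint and RNA libraries of Pelo cKO MEFs also differed in genes induced by interferon: 12 of 12 such genes rose in footprints, beside 22.9% of all genes, with a median of 5.91 (Oasl2 6.42, Mx1 6.30, Rtp4 6.27 and Isg15 6.11 leading), and 0 of 11 passed in RNA with edgeR, with a median of -0.44 and 3 at an unadjusted p under 0.05, where 32.1% of all genes were called. In Hbs1l cKO 10 of 11 rose in footprints and in RNA, and in the libraries labelled Upf2 cKO 11 of 12 rose in footprints and 8 of 12 in RNA. Their part in the TE of the synthetases was not tested. The median TE change was 0.43 for cytosolic and 0.19 for mitochondrial members, beside 0.04 over all genes.

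In the libraries labelled Upf2 cKO TE of 10 synthetases rose and of 0 fell, where 8.47% of all genes were called higher and 20.3% in either direction. All 10 were cytosolic, 5 of them in the complex. Eprs rose by 0.85 (adjusted p = 0.00402), Lars by 0.77, Tars by 0.67, Dars by 0.61, Iars by 0.56, Gars by 0.48, Vars by 0.47, Nars by 0.46, Hars by 0.38 and Mars by 0.35, and Kars was at 0.16 (adjusted p = 0.395). Eprs footprints rose by 0.40 while its RNA fell by 0.47. Aars, with the largest footprint change, had a TE change of 0.33 (adjusted p = 0.0893). The median TE change was 0.38 for cytosolic and 0.02 for mitochondrial members, beside -0.03 over all genes. The count was 5 without labelled mutant footprint replicate 2, RNA control replicate 3 or footprint control replicate 2 (13.4%, 12.5% and 12.9% of all genes), and 6 without labelled mutant footprint replicate 1 or 3 or footprint control replicate 1 (13.7%, 17.8% and 14.5%). Dars, Eprs, Gars, Tars and Lars passed each time.

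**Figure D4:**
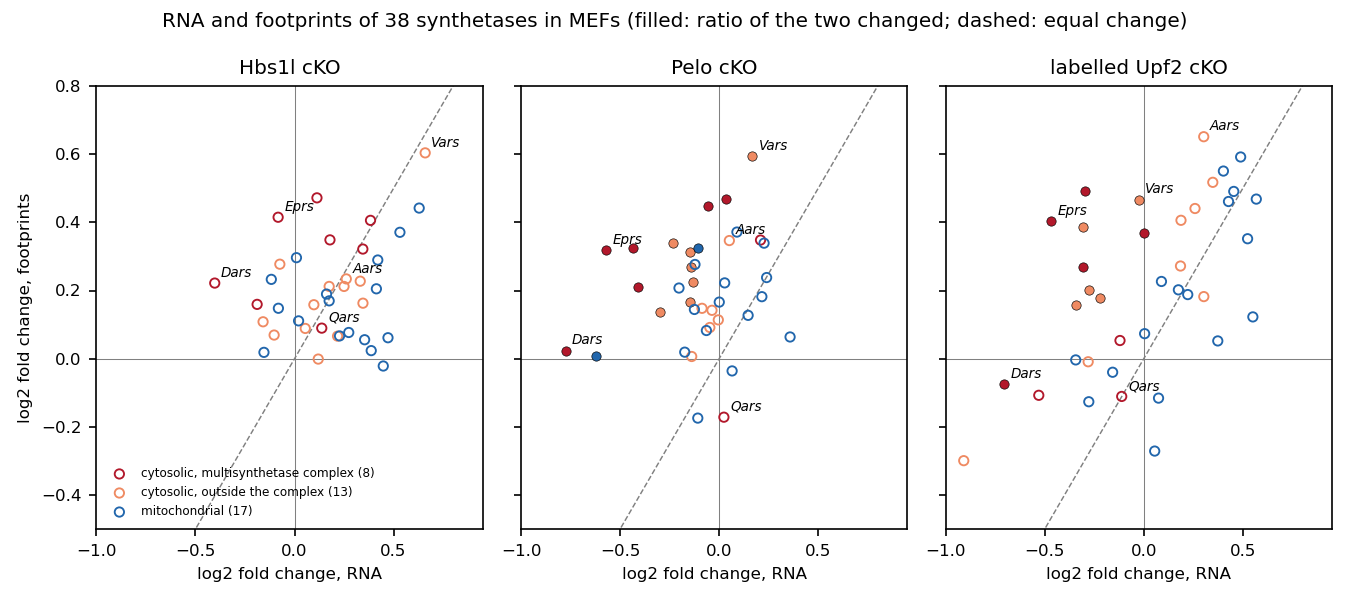
Log2 fold change of RNA (horizontal axis) and of footprints (vertical axis) of the 38 synthetases in 3 MEF mutants, with filled points where TE changed, colours as for the roles and the dashed line where both changes are equal. Eprs lies to the left of 0 with footprints above 0 in the Pelo cKO panel (RNA -0.57, footprints 0.32) and the labelled Upf2 cKO panel (-0.47 and 0.40), and no point is filled for Hbs1l cKO.

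Transcripts of the synthetases were also tested singly. The 303 transcripts comprise 101 protein-coding forms, 115 with a retained intron, 48 annotated as NMD targets and 39 other processed transcripts. In Hbs1l cKO and Pelo cKO MEFs DESeq2 called 11 and 7 of them, beside 16.4% and 18.6% of all transcripts. With edgeR 1 of 129 tested transcripts passed in Hbs1l cKO, Vars-201 (protein coding, 0.71), where 1.31% of all transcripts were called. In Pelo cKO 1 of 120 passed with edgeR, Dars-201 (protein coding, -0.79), where 2.37% were called. Without any single library 0 transcripts of any gene passed, so these fits bear on neither.

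In the libraries labelled Upf2 cKO 7 of 149 synthetase transcripts rose and 2 fell, where 5.35% of all transcripts were called, 4.37% higher and 0.985% lower. Of the 27 tested NMD-annotated transcripts 3 rose, with a median of 1.25 over the 27, beside 14.7% called higher and a median of 0.88 over all 2945 such transcripts. Farsa-206 (NMD) was at 0.822, 1.02 and 0.924 TPM (transcript abundance as parts of the library total) in controls and 7.53, 7.51 and 9.56 in the labelled mutants (3.14, SE 0.22, adjusted p = 0.00199). It was at 0.209 to 1.59 TPM in Hbs1l cKO and 0.386 to 0.902 in Pelo cKO, near the control level. The main coding form, Farsa-201, was at 45.5, 51.3 and 56.2 TPM in controls and 44.8, 57.2 and 51.7 in the labelled mutants (-0.02, adjusted p = 0.938).

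Yars2-203 (NMD) rose from 0.931, 0.678 and 1.16 to 4.50, 5.81 and 4.99 TPM (2.42, adjusted p = 0.00819), and the coding form Yars2-201 was at 0.01 (adjusted p = 0.976). Summed over its transcripts, Yars2 RNA rose by 0.57 as given above. Cars-211 (NMD) rose by 2.27 (adjusted p = 0.0263). Of the retained-intron forms, 3 of 39 tested rose, beside 4.86% of all such transcripts: Farsa-203 by 2.71 (adjusted p = 0.00804), Sars-205 by 1.61 (adjusted p = 0.0463), and Ears2-202, which was listed at 0 in each control and at 0.660, 0.367 and 0.702 TPM in the labelled mutants (adjusted p = 0.0146).

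The protein-coding form Kars-203 rose from 0.443, 0.944 and 2.05 to 12.4, 10.8 and 8.98 TPM (3.15, adjusted p = 0.0201), beside 113, 129 and 146 TPM of the main form Kars-201 in controls and 111, 125 and 91.7 in the labelled mutants (-0.29, adjusted p = 0.161). The coding forms Dars-201 (-0.77) and Tarsl2-201 (-0.98) fell. Over fits without 1 library, 4 to 7 synthetase transcripts passed. The count was 4 without control replicate 2 or any 1 labelled mutant library, beside 1.42 to 1.73% of all transcripts. It was 5 without control replicate 3, beside 3.14%. Farsa-203, Farsa-206 and Yars2-203 passed each time. DESeq2 called 25 (13.9% of all transcripts), no filter gave 5 (1493 of all) and a replicate block 1 (112 of all).

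**Figure D5:**
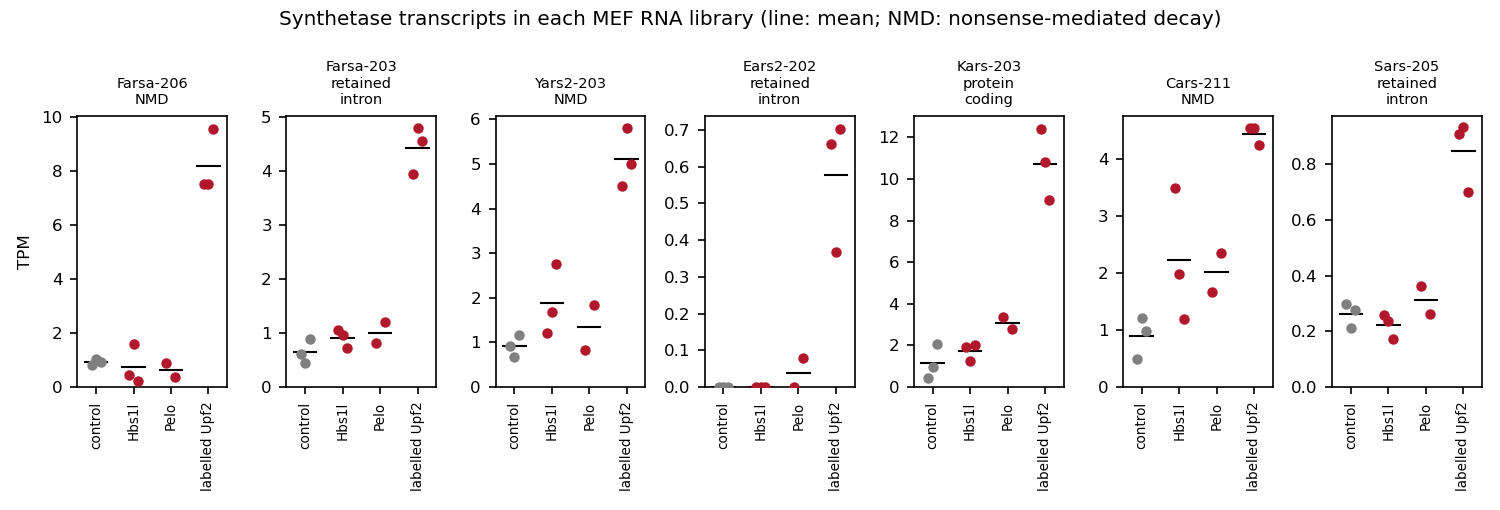
TPM (axes from 0, a scale for each panel) of 7 synthetase transcripts in each MEF RNA library of the control, Hbs1l cKO, Pelo cKO and labelled Upf2 cKO groups, with grey points for controls, red points for mutants and lines at the means. In each panel the 3 libraries labelled Upf2 cKO lie above all others, and Farsa-206 reaches 9.56 TPM.

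Among 16 partner genes of the synthetases (complex scaffolds, elongation factor 1B subunits, and enzymes of indirect aminoacylation or editing), footprints of 3 or 4 rose in each MEF mutant, beside 17.4%, 22.9% and 22.3% of all genes in Hbs1l cKO, Pelo cKO and the libraries labelled Upf2 cKO. In Hbs1l cKO these were Aimp1, a scaffold of the complex (0.22), and Eef1d (0.22) and Eef1b2 (0.21), exchange factors for the protein that delivers charged tRNAs. In Pelo cKO Eef1g (0.84), Eef1d (0.30), Eef1b2 (0.25) and Aimp1 (0.17) rose, and Prorsd1, a prolyl-tRNA editing protein, fell by 0.32. In the libraries labelled Upf2 cKO Gatb, a subunit of the mitochondrial glutamyl-tRNA amidotransferase (0.65), Sepsecs, which makes selenocysteinyl-tRNA (0.43), and Eef1d (0.27) rose, and Eef1e1, a scaffold of the complex, fell by 0.39. In embryos and cerebella 0 of 16 passed with edgeR, where 1.87% and 0.0624% of all genes did, and 1 and 0 had an unadjusted p under 0.05, beside 18.6% and 13.4%.

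Of 22 genes of the amino acid response, footprints of 9 rose and 2 fell in Hbs1l cKO (median 0.15), 16 rose and 1 fell in Pelo cKO (median 0.60), and 15 rose and 0 fell in the libraries labelled Upf2 cKO (median 0.56), beside the same shares of all genes called higher (17.4%, 22.9% and 22.3%). Atf4 itself rose by 0.34, 0.81 and 1.49. Cebpb and Atf5, transcription factors of the response, rose by 0.71 and 0.67 in Hbs1l cKO and by 2.26 and 1.87 in Pelo cKO, and Shmt2, a mitochondrial serine hydroxymethyltransferase, by 0.55 and 0.87. In the libraries labelled Upf2 cKO Atf5 rose by 1.42, Nupr1 by 1.10 and Trib3 by 1.08, whereas Nupr1 fell by 1.14 in Hbs1l cKO and by 0.63 in Pelo cKO. At the RNA level the counts were 12 up and 1 down, 2 up and 6 down, and 7 up and 1 down, where 12.7%, 15.5% and 13.2% of all genes were called higher, and 16.6% lower in Pelo cKO. In embryos 1 of the 18 tested rose, Asns (asparagine synthetase, 0.74), and 6 had an unadjusted p under 0.05, beside 1.87% and 18.6% of all genes. In cerebella 0 of 22 passed with edgeR and 5 had an unadjusted p under 0.05, beside 0.0624% and 13.4%.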

How the data were processed

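Per the labels, the authors took reads to mm10, with Bowtie2 2.2.3, HISAT2 2.1.0, featureCounts and kallisto 0.42.4 named in the submitters' processing notes. The deposited footprint files hold whole-number counts per gene over coding exons, and the authors' RNA files hold kallisto estimated counts and TPM per transcript. Estimated counts were summed per gene, or kept per transcript, and rounded.

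Groups came from the labels. The rows of 100 histone genes were left out of footprint tests. Genes passed edgeR's filterByExpr, libraries were scaled by TMM, and edgeR 4.0.16 quasi-likelihood tests were fitted for each comparison, with Benjamini-Hochberg adjustment over all features tested and calls at an adjusted p of at most 0.05. CPM were TMM-scaled over the libraries of each comparison, so 1 library can have different values in 2 comparisons. TE was a genotype-by-assay interaction term, with TMM within each assay. Direct contrasts of MEF mutants used control counts summed over the 3 batches. DESeq2 1.42.0, RLE scaling, no filter, limma 3.58.1 on log2(TPM + 0.5), a replicate block and omission of each library were alternatives. The script was tested on simulated data. Some items are counted among the members but not reported here.

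In each comparison the members past the threshold were named, up to 10 in each direction by size. Where fewer than 3 passed, the 3 with the lowest p were named. Gars and Kars were also named in most comparisons. The targeted gene was named for the footprints of each mutant, and for RNA only in the case of Upf2. Further members past the threshold, and those set against them (such as Qars), were named after their values were seen. Of the other lists up to 4 genes in each direction were named, and of transcripts those called. The 38 members, the lists and the tests were chosen with earlier results of these data known. The lists were partners, amino acid response, interferon-induced and mitochondrial ribosomal protein genes, and cell type markers.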

Additional observations from a re-analysis of the deposited data

Results flagged for a closer look

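Footprint levels that differed between MEF mutants, tested directly with edgeR, came to 25 over 3 contrasts. These were 3, 9 and 13 of 38 synthetases, beside 19.3%, 29.0% and 15.5% of all genes, and mutant and batch cannot be told apart. The effect of Hbs1l loss differed between MEFs and embryos for 1 synthetase. Values are log2 differences between mutants. Higher in Pelo cKO than in Hbs1l cKO were Kars (0.19) and Yars (0.18), and lower was Qars (-0.26). Higher in Pelo cKO than in the libraries labelled Upf2 cKO were Kars (0.45), Rars (0.29) and Farsb (0.19), and lower were Hars2 (-0.41), Wars2 (-0.38), Lars2 (-0.34), Aars (-0.31), Sars (-0.24) and Yars (-0.22). Higher in the libraries labelled Upf2 cKO than in Hbs1l cKO were Hars2 (0.47), Aars (0.42), Wars2 (0.40), Yars (0.40), Sars (0.37), Wars (0.29) and Cars (0.24), and lower were Tarsl2 (-0.50), Rars (-0.29), Kars (-0.26), Dars (-0.25), Qars (-0.25) and Farsb (-0.22). The contrasts share libraries, so a gene can stand in several of them. Fitted as an interaction with each mutant's own controls (695, 1648 and 608 genes called in all), 7 of the 25 passed: Sars, Aars, Kars and Rars between Pelo cKO and the libraries labelled Upf2 cKO, and Sars, Yars and Aars between those libraries and Hbs1l cKO. The effect of Hbs1l loss on Vars was 0.92 higher in MEFs than in embryos (SE 0.20), where 7.46% of all genes were called.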

How the results depend on the processing

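No named synthetase or synthetase transcript reversed its direction under any alternative. The median gap between compartments did change sign for footprints of the libraries labelled Upf2 cKO when 1 library was left out, as given below. Across named results, DESeq2 kept the call in 203 of 212, RLE scaling in 210, no filter on low counts in 195, a replicate block in 187, and limma on TPM in 8 of 31. The counts of calls that moved by over 1.5 times were as follows, and the cause was not tested. Without the filter, 1 synthetase passed in embryos (4.31% of all genes) and 5 transcripts in the libraries labelled Upf2 cKO (1493 of all). With limma on TPM, RNA counts were 3 (Hbs1l cKO), 2 (Pelo cKO) and 3 (labelled Upf2 cKO). DESeq2 called 1 for TE in Hbs1l cKO (4.18% of all genes), 5 for Pelo against Hbs1l (19.9%), 1 for embryos against cerebella (4.34%), and 11, 7 and 25 transcripts (16.4%, 18.6% and 13.9% of all). Transcripts with at least 1 TPM gave 3 and 2 calls in Hbs1l cKO and Pelo cKO (6.92% and 8.77% of all). The interaction with own controls gave 0, 4 and 3.

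Same-numbered samples were not paired: no comparison had every correlation of their deviations over 0.1 (range -0.23 to 0.29). A replicate block gave 16, 17 and 18 footprint calls and 10, 1 and 10 RNA calls in the MEF mutants. The 1 RNA call in Pelo cKO stood beside 20.1% of all genes. The block gave 13 and 7 TE calls in Pelo cKO and labelled Upf2 cKO, and 1 call for MEFs against cerebella (4.77% of all genes). For transcripts it gave 0, 0 and 1 (0, 0 and 112 of all).

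Leaving out 1 library at a time gave 0 to 7 synthetases in embryos, 0 to 1 in cerebella, and 10 to 17, 10 to 15 and 15 to 20 in Hbs1l cKO, Pelo cKO and labelled Upf2 cKO MEFs. RNA counts were 3 to 8, 1 to 7 and 2 to 9, and TE counts 0 to 1, 10 to 17 and 5 to 10. Direct contrasts gave 1 to 4 (Pelo against Hbs1l), 6 to 10 (Pelo against labelled Upf2) and 8 to 15 (labelled Upf2 against Hbs1l), source contrasts 30 to 31 and 22 to 28, and the interactions 1 to 6 and 0 to 8. Transcript counts were 0 to 0 and 0 to 0, with 0 called among all transcripts, and 4 to 7. The median gap of cytosolic against mitochondrial members ranged from 0.13 to 0.46 in embryos, -0.16 to -0.01 in cerebella, 0.03 to 0.10, 0.01 to 0.09 and -0.01 to 0.20 for MEF footprints, and -0.31 to -0.054, -0.23 to -0.08 and -0.56 to -0.28 for MEF RNA. Embryo libraries were the shallowest, and 2 Pelo cKO RNA libraries limit that comparison.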

Other observations

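Lars2 RNA stood apart from the other members. It was listed at 940 to 2044 TPM per MEF library, of which 99.2 to 99.6% lay on 1 transcript annotated as an NMD target, Lars2-209, while the protein-coding form Lars2-201 was at 5.40 to 11.9 TPM. The 38 synthetases together came to 3234 to 3832 TPM per library, and to 1703 to 2359 without Lars2. Footprints of Lars2 were at 8.23 CPM per kilobase in control MEFs, within the range of the other mitochondrial synthetases. This was noticed after the values were seen, and no test bears on it.

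The cytosolic genes Hars and Eprs each lie near a mitochondrial one. Hars and Hars2 are transcribed in opposite directions and their gene bodies share 198 bases, and Eprs and Iars2 lie 33647 bases apart, also in opposite directions. In the libraries labelled Upf2 cKO, Hars2 footprints rose by 0.59 and Hars footprints by 0.18. Eprs footprints rose by 0.40, and Iars2 was at -0.13 (adjusted p = 0.146 by edgeR).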
